A study of Mus musculus with 18 samples.

Results

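Immunoglobulin variable (V) segments are the gene pieces from which the antigen-binding ends of antibodies are built, and 45 of them were followed across the livers and intestinal epithelial fractions of transplanted mice. A segment was taken when its symbol starts with Ighv, Igkv or Iglv and its row held at least 5 counts over all 18 libraries. Of 348 annotated segments 45 met this, among 53379 genes in the count table. The recipients were lethally irradiated female BALB/cJ mice, 6 to 8 weeks old, that had received 10000000 bone marrow cells without T cells (BM group) or with 1000000 T cells (BMT group), and all tissue was taken on day 7. Every group therefore shares the irradiation and the marrow graft, and the added T cells are what differs. Each of 6 groups holds 3 libraries: bulk liver and epithelial cell fractions of both parts of the intestine, each from BM and BMT recipients. The sources used here do not name the donors' strain.

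The titles and library codes of the intestinal sets contradict each other. The code SI libraries are titled large intestine but held 8451 to 29850 CPM (counts scaled to a library total of 1000000) of 10 small intestine region genes, against 291 to 584 CPM in the code LI libraries. The code LI libraries are titled small intestine but held 7889 to 15520 CPM of 10 large intestine region genes, against 819 to 1467 CPM in code SI. The sets are called code SI and code LI here. Library depth ran from 18845483 to 25610937 counts, so that 1 count was worth 0.039 to 0.053 CPM. Library 3 of the code SI BMT group held 2213 counts of Alb, the hepatocyte gene for albumin, against 0 to 27 in the other code SI libraries.

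Developing B cells join a V segment to short D and J pieces for the heavy chain (Ighv), or to a J piece for the kappa (Igkv) or lambda (Iglv) light chain. The joined exon is spliced to a constant gene, such as Ighm for IgM, Igha for IgA, the Ighg genes for IgG and Igkc for kappa. Plasma cells make these transcripts in great amount, and IgA plasma cells of the gut lie in the lamina propria under the epithelium. In mice the kappa locus supplies most light chains. A polyclonal population spreads its reads over many segments, while a single clone puts them on 1 heavy and 1 light chain segment.

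All member segments lie in 3 clusters, Ighv on chromosome 12, Igkv on chromosome 6 and Iglv on chromosome 16 of GRCm38. The coordinates of all 45 equal those of GENCODE M21. Close copies bear on every count below, because a read that fits 2 segments equally well can be dropped or placed in either, and the sources used here do not give the setting for such reads. The V exons of 25 members had a nearest other segment at least 95% identical, and the median identity to the nearest was 95.4%. Over whole transcripts, 19 members shared at least 1 stretch of 100 bases, the read length, with another V segment, and 26 shared none. Recipients were BALB/cJ while the reference is C57BL/6J, whose V segments differ in sequence and number, and somatic mutation adds further mismatches. The number of a single segment is therefore uncertain, and sums over segments depend less on how close copies were assigned.

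The V exons of 3 pairs are shown on their coding strand, from GENCODE M21 on GRCm38, with capitals at every base where the pair differs, including inserted bases. Of exons over 300 bases the first few are left out. The first pair holds the most counted segment and its nearest copy. The exon of Iglv1 lies at chr16:19085017-19085321 and that of Iglv2 at chr16:19260401-19260705, both on the minus strand, and the first 5 bases of each are not printed. The exons differ at 9 of 305 bases (97.0% identity), and 5 of 206 windows of 100 bases were the same.
Iglv1: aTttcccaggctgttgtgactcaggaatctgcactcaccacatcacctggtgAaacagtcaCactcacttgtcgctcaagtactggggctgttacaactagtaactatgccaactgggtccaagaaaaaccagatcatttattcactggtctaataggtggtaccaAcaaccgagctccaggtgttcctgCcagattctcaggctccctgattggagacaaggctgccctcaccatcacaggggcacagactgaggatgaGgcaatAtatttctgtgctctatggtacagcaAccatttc
Iglv2: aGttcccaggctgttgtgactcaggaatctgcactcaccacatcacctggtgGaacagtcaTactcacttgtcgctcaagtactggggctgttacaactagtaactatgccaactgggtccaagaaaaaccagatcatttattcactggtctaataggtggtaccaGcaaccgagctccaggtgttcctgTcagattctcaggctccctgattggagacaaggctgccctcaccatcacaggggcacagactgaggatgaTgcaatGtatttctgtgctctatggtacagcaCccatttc

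The second pair is shown because its segments are kappa neighbours of the same family whose liver counts leaned in opposite directions between the groups. The exon of Igkv8-27 lies at chr6:70171809-70172119 and that of Igkv8-30 at chr6:70117061-70117376, both on the minus strand, and the first 16 bases of each are not printed. The exons differ at 32 bases and by 5 inserted bases (88.3% identity), and share no window of 100 bases.
Igkv8-27: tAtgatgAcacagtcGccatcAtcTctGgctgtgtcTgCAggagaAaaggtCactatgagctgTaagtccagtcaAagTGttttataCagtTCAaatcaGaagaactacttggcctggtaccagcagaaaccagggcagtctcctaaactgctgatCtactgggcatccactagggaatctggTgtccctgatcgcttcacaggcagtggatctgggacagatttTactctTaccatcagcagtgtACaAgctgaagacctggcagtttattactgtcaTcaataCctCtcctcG
Igkv8-30: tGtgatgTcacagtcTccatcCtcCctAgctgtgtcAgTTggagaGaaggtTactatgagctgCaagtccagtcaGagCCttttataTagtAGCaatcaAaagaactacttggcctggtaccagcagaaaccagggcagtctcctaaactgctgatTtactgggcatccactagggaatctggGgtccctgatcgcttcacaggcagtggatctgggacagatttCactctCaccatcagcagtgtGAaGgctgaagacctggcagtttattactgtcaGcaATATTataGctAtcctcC

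The third pair is shown because both segments had their highest count in the same intestinal library. The exon of Igkv12-41 lies at chr6:69858420-69858717 and that of Igkv12-44 at chr6:69814631-69814928, both on the minus strand. They differ at 13 bases (95.6% identity) and share no window of 100 bases within these exons, though over whole transcripts each shared 14 windows with another segment.
Igkv12-41: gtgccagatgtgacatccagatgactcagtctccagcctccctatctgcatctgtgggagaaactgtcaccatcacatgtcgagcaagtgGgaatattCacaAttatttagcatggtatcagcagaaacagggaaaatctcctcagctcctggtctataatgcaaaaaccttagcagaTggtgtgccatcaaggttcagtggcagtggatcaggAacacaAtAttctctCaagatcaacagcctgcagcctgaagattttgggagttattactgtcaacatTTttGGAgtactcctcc
Igkv12-44: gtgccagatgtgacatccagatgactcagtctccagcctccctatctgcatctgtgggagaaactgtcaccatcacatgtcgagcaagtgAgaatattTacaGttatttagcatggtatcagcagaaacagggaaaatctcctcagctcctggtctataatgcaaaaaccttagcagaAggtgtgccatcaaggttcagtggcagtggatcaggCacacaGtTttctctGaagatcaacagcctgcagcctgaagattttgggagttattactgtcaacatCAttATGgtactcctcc

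The 45 segments held 444 of 398242845 counts, or 1.11 CPM over the whole table. Kappa segments supplied 292 counts (65.8%) through 31 members of 160 annotated. Heavy chain segments supplied 83 counts (18.7%) through 11 of 185. Lambda segments supplied 69 counts (15.5%) through all 3 annotated. Of the other V segments 227 had no count at all and 76 had 1 to 4, together 160 counts. Among annotated pseudogenes 1 of 130 was a member (Ighv3-2), against 44 of the 218 segments without that label.

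Counts per segment were small. The median member held 8 counts in all, the highest count of any member in any library was 9, and 18 members held 10 or more. Members had a count in a median of 4 libraries, 20 were seen in 3 libraries or fewer, and 20 had at least 50% of their counts in 1 library. Just inside the minimum, with 5 counts, were Ighv2-9, Ighv5-17, Igkv3-12, Igkv4-57, Igkv4-86, Igkv5-43, Igkv6-23, Igkv6-25 and Igkv8-21. Just outside, with 4, were Ighv1-26, Ighv1-4, Ighv1-81, Ighv1-82, Ighv6-3, Ighv7-1, Igkv3-7, Igkv5-48 and Igkv8-19.

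Liver libraries held most of the V counts: 322 (72.5%), against 71 (16%) in code SI and 51 (11.5%) in code LI. Every member had a count in liver, 24 had one in code SI and 18 in code LI. In liver alone 12 members were seen, and none was seen in the intestine alone. The minimum of 5 counts, met mostly through liver, bears on this. Ighv6-3 and Igkv5-48, with 4 counts each, were just outside it and were seen in the intestine alone. Counts in all 3 tissues were found for 9 members: Iglv1, Igkv1-135, Igkv4-59, Ighv10-1, Igkv12-41, Igkv12-44, Igkv9-120, Igkv1-110 and Ighv3-2.

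**Figure D1:**
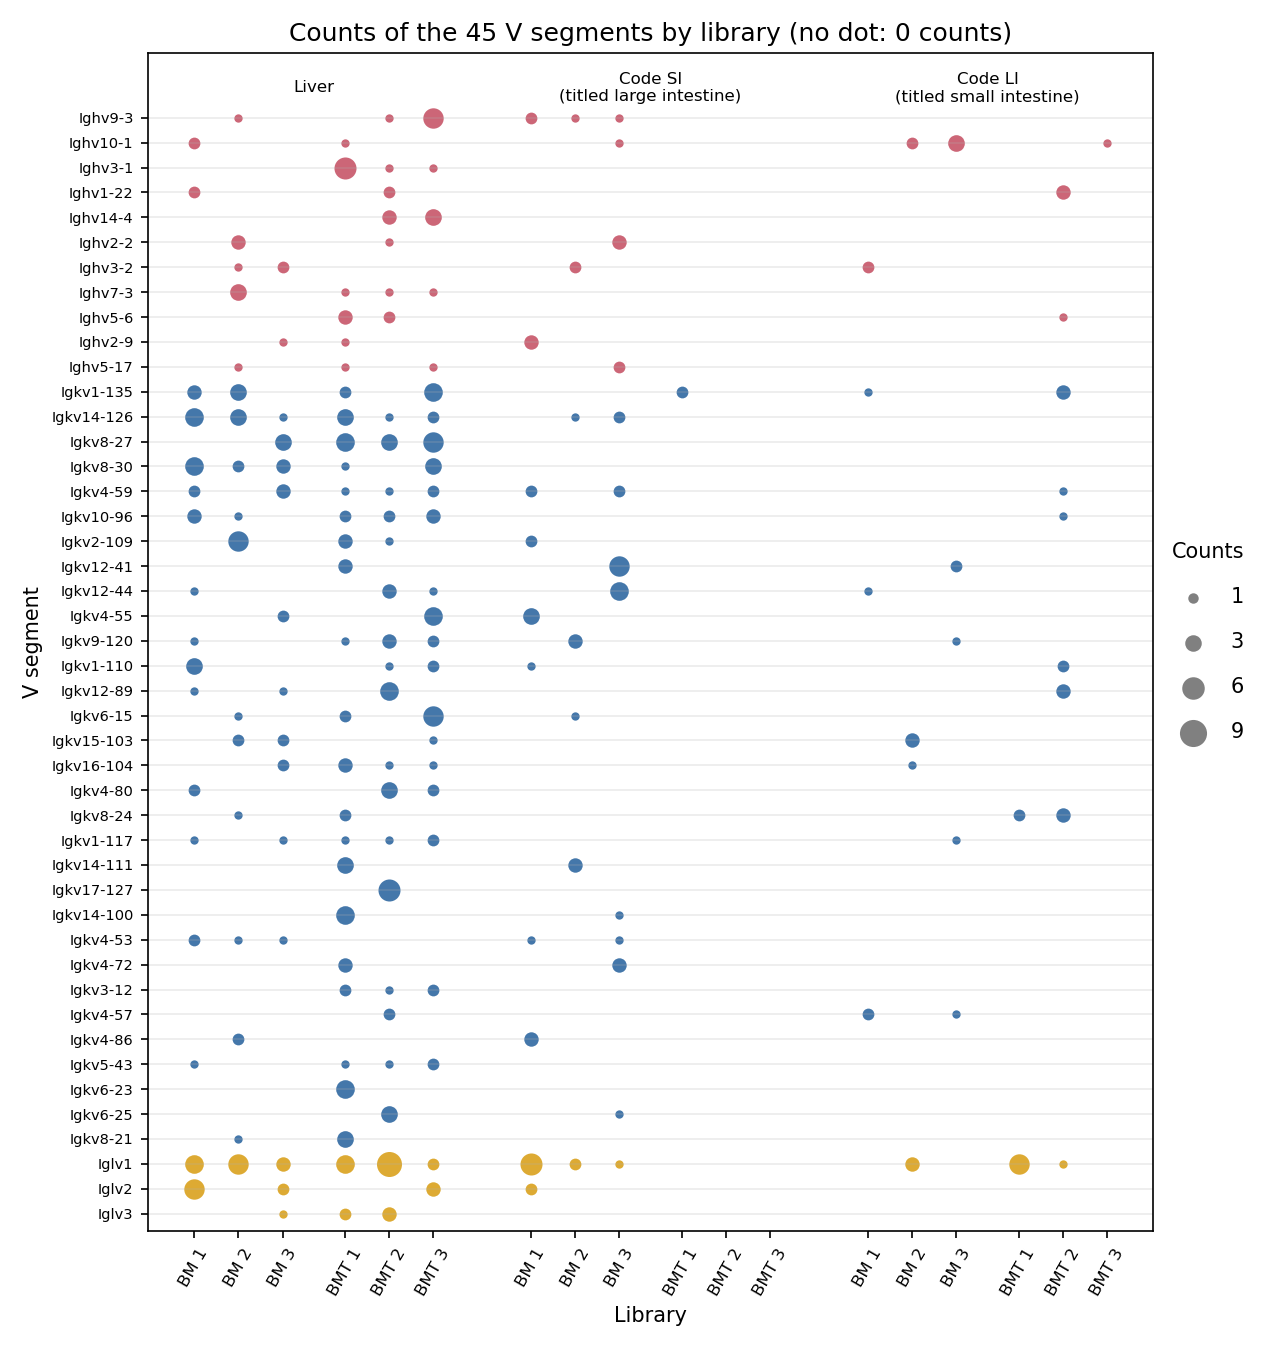
Counts of each of the 45 V segments (rows, coloured by locus) in each of the 18 libraries (columns), with dot area proportional to the count and no dot where it was 0. The liver columns are filled by many small dots, the code SI BMT columns hold a single dot (Igkv1-135, 2 counts), and Iglv1 is the row seen in the most libraries, 12.

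In liver, V segment transcripts were higher with T cells. The summed V level was 2.08, 1.86 and 1.35 CPM in the BM livers and 3.06, 2.63 and 3.11 CPM in the BMT livers. These are 46, 41 and 29 counts against 75, 65 and 66. All BMT livers lay above all BM livers, with means of 1.77 ± 0.375 and 2.93 ± 0.263 CPM (SD, n = 3 each). Pooled counts were 116 and 206, a ratio of 1.65 (95% interval 1.31 to 2.09, counting error only). No p is given for a sum over the members, since they were chosen with earlier results known.

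In code SI the order was the opposite, and V transcripts were almost absent from the BMT libraries. The summed level was 1.23, 0.588 and 1.48 CPM in the BM libraries and 0.106, 0 and 0 CPM in the BMT libraries. These are 27, 13 and 29 counts against 2, 0 and 0. The groups did not overlap, and the means were 1.10 ± 0.461 and 0.0354 ± 0.0613 CPM (SD, n = 3 each). Pooled counts of 69 and 2 give a BMT to BM ratio of 0.0282 (95% interval 0.00335 to 0.106). A library with 0 counts still allows up to 3.69 counts (95% exact Poisson interval), which is 0.158 CPM in BMT library 2 and in BMT library 3. The Alb-rich BMT library 3 was among those with 0 counts of the 45 members, though it held 3 counts of segments under the minimum. The BMT minus BM difference of the means was -1.06 CPM with that library and -1.05 CPM without it. Over every annotated segment, the counts were 37, 14 and 32 in BM against 3, 0 and 3 in BMT libraries. The group means were then 1.32 CPM in BM and 0.0959 CPM in BMT.

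In code LI the groups could not be separated. The summed level was 0.306, 0.404 and 0.351 CPM in the BM libraries and 0.358, 0.808 and 0.0477 CPM in the BMT libraries, from 6, 9 and 9 counts against 8, 18 and 1. The BMT libraries held both the highest and the lowest value of the set. The means were 0.354 ± 0.0493 and 0.404 ± 0.382 CPM, and pooled counts of 24 and 27 gave a ratio of 1.16 (95% interval 0.643 to 2.10). Leaving out BMT library 2 turned the difference of the means from 0.0507 to -0.151 CPM, so its direction rests on that library. In bulk RNA, fewer cells of a type and less RNA per cell cannot be told apart.

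**Figure D2:**
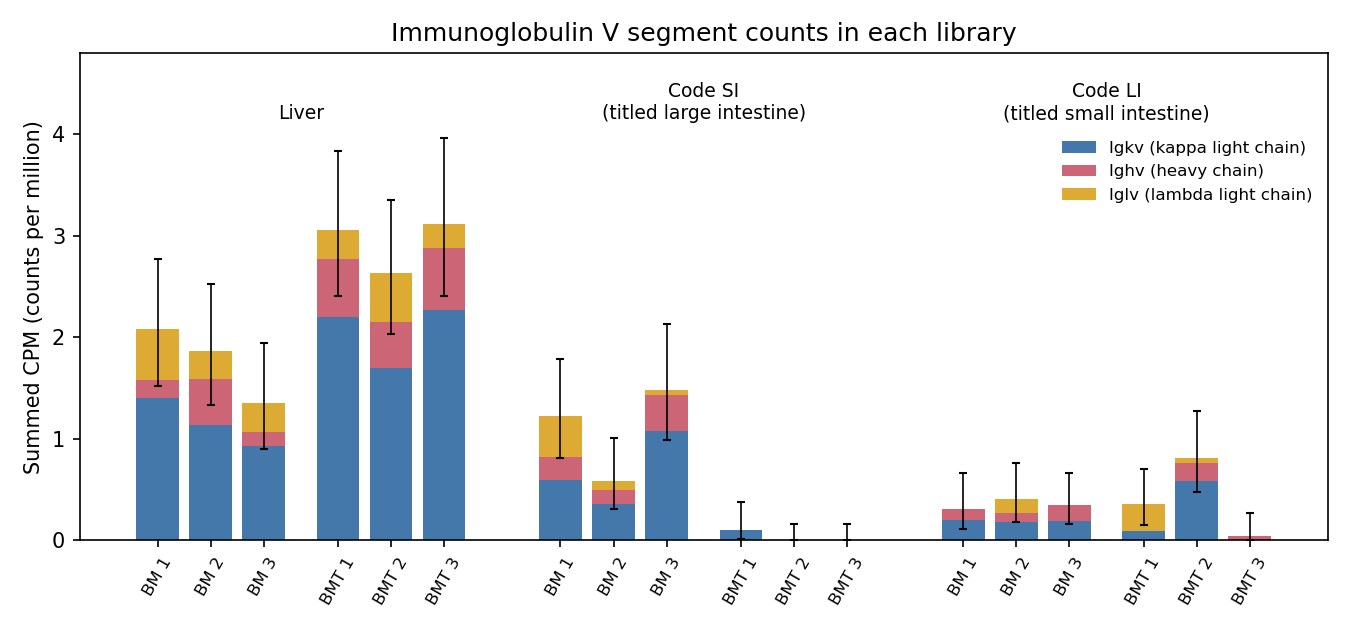
Summed CPM of the V segments in each library (bars, stacked by locus), with 95% Poisson intervals of the summed count converted to CPM (black lines, counting error only). BMT livers (2.63 to 3.11 CPM) stand above BM livers (1.35 to 2.08 CPM), code SI BMT libraries hold 0 to 0.106 CPM, and the code LI groups overlap.

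Lane numbers in the column names gave a check in liver, where lane 1 held 1 library of each group and lane 2 held 2 of each. The V level was 1.35 CPM in BM and 2.63 in BMT within lane 1, and 1.97 and 3.08 within lane 2 (means). In code SI, lane 2 held 3 BM and 2 BMT libraries, at 1.10 and 0.0531 CPM. In code LI, lane 2 held 3 BM and 2 BMT libraries, at 0.354 and 0.583 CPM. Lane 1 held only a BMT library in each intestinal set.

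By locus, the liver difference was seen in heavy chain and kappa counts. Heavy chain segments gave 17 counts in BM and 38 in BMT livers (ratio 2.08, 95% interval 1.15 to 3.93). Of the BMT counts, 9 were of Ighv3-1, 7 of Ighv14-4 and 5 of Ighv5-6, all with 0 in BM livers. These segments met the minimum of 5 counts only through BMT livers, so nothing is read from the heavy chain ratio. Kappa segments gave 76 and 144 counts (ratio 1.76, 1.33 to 2.36), which the minimum, met by some kappa members only through BMT livers, also favours. Lambda segments gave 23 and 24 counts (ratio 0.971, 0.525 to 1.80), an interval that includes both no change and the kappa ratio, and the difference between loci was not tested. In code SI all loci were lower in BMT. Kappa counts were 42 and 2 (ratio 0.0463, 95% interval 0.00543 to 0.178). Heavy chain counts were 15 and 0, at least 5.14-fold lower, and lambda counts 12 and 0, at least 4.12-fold lower, each set against 3 counts over the BMT group. In code LI the counts were 8 and 5 for heavy chain, 13 and 15 for kappa, and 3 and 7 for lambda segments, and all 3 ratio intervals included 1.

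More segments were also seen in BMT livers. The number of members with a count was 17, 17 and 15 in BM livers and 28, 26 and 24 in BMT livers, without overlap (means 16.3 ± 1.15 and 26 ± 2, SD, n = 3 each). Part of that number follows from the number of counts. Reduced to the 29 V counts of the liver library with the fewest, the expected number was 14.6 in BM and 17.6 in BMT livers. Members were taken by totals over all libraries, of which liver BMT counts are the largest share. Within liver, 12 were seen in BMT libraries alone and 3 in BM libraries alone. The rest of the difference is therefore not read as a result. In code SI the number was 10, 7 and 13 in BM and 1, 0 and 0 in BMT libraries. In code LI it was 4, 4 and 5 against 2, 9 and 1, again spanning the BM values.

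**Figure D3:**
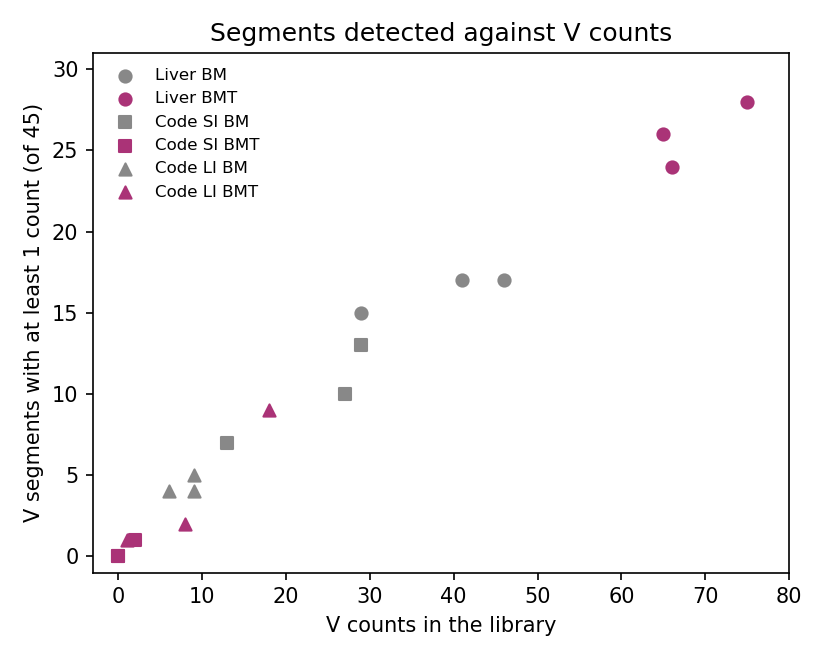
Number of the 45 V segments with at least 1 count (vertical axis) against the V counts of the library (horizontal axis), 1 point per library, shaped by tissue and coloured by group. BMT livers sit at the upper right (65 to 75 counts, 24 to 28 segments), BM livers between 29 and 46 counts, and 2 of the code SI BMT libraries at 0.

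The liver difference by counts was spread over members outside the most counted. The 3 members with 20 or more counts, Iglv1, Igkv1-135 and Igkv14-126, together gave 31 counts in BM and 30 in BMT livers. The 15 members with 10 to 19 counts gave 51 and 80. The 27 members with 5 to 9 counts gave 34 and 96. These classes, like the minimum of 5 counts, were set by totals over all libraries, of which liver BMT counts are the largest share, so nothing is read from the split. With every segment of at least 1 count included, the liver difference was 1.88 CPM, against 1.17 CPM over the 45.

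Iglv1, the most used lambda segment of laboratory mice, led the members at 50 counts (128 counts per kilobase of its annotated length). The next were Igkv14-126 (55.9 per kilobase), Igkv8-27 (52.8), Igkv1-135 (50.8) and Igkv8-30 (40.8). In liver Iglv1 had 5, 6 and 3 counts in BM and 5, 9 and 2 in BMT libraries. It had 7, 2 and 1 counts in code SI BM libraries and 0 in all 3 BMT libraries. In code LI it had 0, 3 and 0 against 6, 1 and 0. Liver and code LI groups overlapped for this segment, while in code SI every BM library lay above every BMT library. The 10 code SI counts against 0 make it at least 3.43-fold lower in BMT, set against 3 counts over the group. Iglv2, its near copy shown above, had 6, 0 and 2 counts in BM livers, 0, 0 and 3 in BMT livers and 2 in 1 code SI BM library. Iglv3 had 1 count in BM and 5 in BMT livers and none in the intestine.

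Among kappa segments the liver counts divided between relatives. Igkv8-27 had 0, 0 and 4 counts in BM and 5, 4 and 6 in BMT livers, and none in the intestine. Igkv8-30 had 5, 2 and 3 in BM and 1, 0 and 4 in BMT livers, also none in the intestine. For Igkv8-27, BM library 3 reached the lowest BMT count, and for Igkv8-30 the groups overlapped. Pooled ratios were 3.49 (95% interval 1.11 to 14.4) and 0.465 (0.125 to 1.49). Igkv8-27, with 4 BM and 15 BMT counts, met the minimum of 5 only through BMT livers. Nothing is therefore read from its ratio or from the contrast with Igkv8-30. The other members of that family, Igkv8-21 and Igkv8-24, had 1 and 4 and 1 and 2 counts in BM and BMT livers, and Igkv8-24 also had 5 counts in code LI BMT libraries and 0 in BM.

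Igkv14-126 was counted in all 6 livers, with 5, 4 and 1 in BM and 4, 1 and 2 in BMT. Igkv1-135 had 3, 4 and 0 in BM and 2, 0 and 5 in BMT livers, and was the only member with a count in a code SI BMT library, 2 in library 1. Igkv10-96 had 3, 1 and 0 against 2, 2 and 3 counts in liver. These 3 segments overlapped between the groups. Igkv2-109 had 6 of its 12 counts in BM liver 2, and Igkv17-127 all 7 in BMT liver 2. Igkv6-23 had all 5 of its counts in BMT liver 1, and Igkv14-100 had 5 of 6 there. The Igkv6 family went from 1 count in BM to 17 in BMT livers. Its 3 members met the minimum of 5 counts only through BMT livers, so nothing is read from this rise. Igkv6-15 gave 6 in BMT library 3, Igkv6-23 gave 5 in library 1 and Igkv6-25 gave 4 in library 2. Each BMT liver thus had its own leading segment of the family. The family with the most members and counts, Igkv4 (7 members, 55 counts), had 15 counts in BM and 20 in BMT livers, 16 and 0 in code SI, and 3 and 1 in code LI. The kappa members not named with values held 5 to 14 counts each.

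The heavy chain segments with the most counts were Ighv9-3 (12), Ighv10-1 (11) and Ighv3-1 (9). Ighv3-1 had 0 in every BM liver and 7, 1 and 1 counts in BMT livers, and none in the intestine. Ighv14-4 had 0, 3 and 4 counts in BMT livers and 0 elsewhere. Set against 3 counts over the BM group, these are at least 2.79-fold and at least 2.17-fold higher. Ighv9-3 had 0, 1 and 0 counts in BM and 0, 1 and 6 in BMT livers. It had 2, 1 and 1 in code SI BM libraries and 0 in code SI BMT libraries. Ighv10-1 was the heavy chain segment most counted in code LI, with 0, 2 and 4 counts in BM and 0, 0 and 1 in BMT libraries.

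No segment dominated the V counts of a liver library when the 3 loci were pooled. The leading segments were Iglv2 (6 counts, 13% of the library's V counts), Igkv2-109 and Iglv1 (6 each, 14.6%) and Igkv8-27 (4, 13.8%) in BM livers 1 to 3. In BMT livers they were Ighv3-1 (7, 9.33%), Iglv1 (9, 13.8%), and Ighv9-3, Igkv6-15 and Igkv8-27 (6 each, 9.09%). All these pooled shares were low, and 6 different segments led or shared the lead besides Iglv1 over the 6 livers. Within a locus some shares were higher, from few counts. Ighv3-1 gave 7 of 14 heavy chain counts in BMT liver 1, and Ighv9-3 gave 6 of 13 in BMT liver 3. Iglv1 gave 9 of 12 lambda counts in BMT liver 2. Among kappa counts, Igkv6-15 and Igkv8-27 gave 6 each of 48 in BMT liver 3. In code SI BM libraries the leaders were Iglv1 (7, 25.9%), Igkv14-111 and Igkv9-120 (3 each, 23.1%) and Igkv12-41 (6, 20.7%). The kappa pair Igkv12-41 and Igkv12-44 gave 6 and 5 counts in BM library 3 and 0 in the other code SI libraries. In code LI the leaders ranged from 1 to 6 counts, the highest being Iglv1 with 6 of 8 counts in BMT library 1.

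The library descriptions carry numbers that recur across tissues and were read as mouse numbers, so segments could be set side by side within a number. BM libraries numbered 2, 4 and 5 shared 5, 5 and 4 segments between liver and code SI, which is 50%, 71.4% and 30.8% of the segments seen in code SI and 29.4%, 29.4% and 26.7% of those seen in liver. Code SI and code LI of the same number shared 0, 1 (Iglv1) and 2 (Ighv10-1 and Igkv12-41) segments. For the BMT numbers 6, 9 and 10 the code SI libraries held 1, 0 and 0 segments, so little could be compared.

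Group by group, 29 members had a higher pooled CPM in BMT livers and 16 a lower one. The minimum of 5 counts, to which BMT livers gave the largest share, favours the former, so nothing is read from this split. In code SI 23 of 24 were lower in BMT, each of them with 0 BMT counts, and 1 was higher. In code LI 9 were higher and 9 lower. Members whose 3 BMT livers all lay above the 3 BM livers were 2 of 45 (Ighv3-1 and Igkv3-12), against 8.76% of the 25840 genes with at least 5 counts. The reverse held for 1 (Igkv4-53), against 17% of genes. In code SI 2 were lower in all BMT libraries (Iglv1 and Ighv9-3), against 16.5% of genes, and 0 higher, against 11.6%. In code LI there were 0 in either direction, against 18% higher and 19.6% lower. These shares of members lie below those of all genes, but a separation needs a count in all 3 libraries of the higher group. Members with that were 4 in BM and 12 in BMT livers, 2 and 0 in code SI, and 0 and 0 in code LI. Low counts thus capped the shares of members, and nothing is read from their distance to all genes.

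No single segment could be tested by the main fit. edgeR's quasi-likelihood test was run on all genes of a tissue that passed its filter on low counts, and none of the 45 members passed in any tissue. Among the genes tested, 7.46% rose and 3.35% fell in BMT livers, 11.6% and 11.8% in code SI, and 20.4% and 21% in code LI (adjusted p under 0.05). Without the filter, edgeR called 0 members in liver, where 3 had an unadjusted p under 0.05 (Ighv3-1 at 0.0192, Ighv14-4 at 0.035 and Igkv3-12 at 0.0493), all higher in BMT. All counts of these 3 segments were in BMT livers, through which alone they met the minimum of 5, so these values describe segments chosen for that group and are no support for its direction. Of all genes 5.21% were called higher and 2.34% lower. In code SI it called 1, Iglv1, lower in BMT (log2 fold change -4.79 ± 1.79 SE, Benjamini-Hochberg adjusted p = 0.0468), against 8.19% of genes called lower and 8.02% higher. Its BMT counts are all 0, so that fitted value is no bound. In code LI it called 0 members, against 13.9% of genes higher and 12.4% lower, and 0 had an unadjusted p under 0.05. DESeq2 called 0 members in each tissue, and 0 had an unadjusted p under 0.05. Of genes it gave an adjusted p, 7.91% were called higher and 4.09% lower in liver. These shares were 10.3% and 9.25% in code SI, and 16.8% and 15.2% in code LI. Most members got no adjusted p from DESeq2: none had one in code SI, and only Iglv1 in code LI (0.728). In liver the smallest was 0.436. Its 0 calls were thus largely fixed by low counts. The descriptions give each library of a tissue its own number, read here as a mouse number, but the labels do not state that these are separate animals. The p-values therefore measure the spread between these libraries.

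Whether the BMT effect on a segment differed between tissues was also asked in 1 fit over all 18 libraries. No member passed the filter there either, while the effect was called higher or lower for 8.67% and 6.32% of genes in liver against code SI, 10.6% and 8.13% in liver against code LI, and 2.4% and 2.51% in code SI against code LI. Without it, edgeR called 0 members in each of the 3 comparisons, against 5.82% of genes higher and 4.2% lower, 6.72% and 4.75%, and 3.17% and 2.69% in the same order. Only Iglv1 had an unadjusted p under 0.05 (0.0209 for liver against code SI and 0.0157 for code SI against code LI). The opposite directions of the summed V level in liver and code SI were therefore described and not tested.

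The constant genes, to which V exons are spliced, carry more counts per gene. Of 12 constant genes 5 passed the filter in liver, and 2 rose, none falling. Ighg2c, an IgG heavy chain gene, had 1, 2 and 1 counts in BM and 69, 43 and 32 in BMT livers (log2 fold change 5.12 ± 0.53 SE, edgeR adjusted p = 0.00222). Ighg1 had 1, 1 and 1 against 59, 23 and 15 (4.93 ± 0.78, adjusted p = 0.0082). Both passed the filter through the BMT libraries alone. Pooled, the BMT to BM ratio was 33.5 for Ighg2c (95% interval 12.8 to 125) and 30.1 for Ighg1 (10.0 to 148). Ighg3 went from 0 to 32 counts, at least 9.93-fold higher, and Ighg2b from 7 to 40, both untested because the filter removed them.

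Igkc, Ighm and Igha did not pass the test in liver. Igkc had 105, 65 and 42 counts in BM and 139, 139 and 78 in BMT livers (log2 fold change 0.80, edgeR adjusted p = 0.23), and the groups overlapped. Ighm had 116, 83 and 75 against 150, 168 and 153 counts, without overlap (0.85 ± 0.22, adjusted p = 0.0501). Without BM library 1 its edgeR adjusted p was 0.0189, and without any other single library it was 0.0562 to 0.17. Igha had 13, 5 and 7 against 36, 16 and 6 (1.27, adjusted p = 0.279). The pooled V ratio of 1.65 in liver lies beside 1.56 for Igkc and 1.6 for Ighm. V counts per 100 Ighm counts were 42.3 in BM and 43.7 in BMT livers. Per 100 counts of the constant genes other than Ighm, which include the Ighg genes, they were 41.6 and 26.8.

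In code SI 3 constant genes passed the filter, and 2 of them fell with the V segments. Igha had 91, 21 and 54 counts in BM and 4, 3 and 7 in BMT libraries (log2 fold change -3.54 ± 0.61 SE, edgeR adjusted p = 0.00191). Igkc had 66, 17 and 26 against 5, 2 and 2 (-3.53 ± 0.67, adjusted p = 0.00332). Both passed the filter through the BM libraries, and in both every BMT library lay below every BM library. Jchain, which links IgA and IgM into polymers, had 10, 4 and 6 counts against 1, 0 and 1 and was not tested. Ighm went the other way, with 34, 6 and 7 counts in BM and 63, 98 and 97 in BMT libraries (2.44 ± 0.53, edgeR adjusted p = 0.007). It passed the filter through the BMT libraries.

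In code LI 3 constant genes passed the filter, and Ighm rose while Igkc and Igha did not pass the test. Ighm had 2, 7 and 5 counts in BM and 138, 159 and 66 in BMT libraries (log2 fold change 4.69 ± 0.44 SE, edgeR adjusted p = 1.67e-05). It passed the filter through the BMT libraries alone. Igkc had 13, 18 and 16 against 12, 14 and 12 (-0.26, adjusted p = 0.572), and Igha 26, 20 and 16 against 10, 28 and 14 (-0.24, adjusted p = 0.696). V counts per 100 Ighm counts were thus 171 in BM and 7.44 in BMT libraries of code LI, and 147 and 0.775 in code SI. Per 100 counts of the constant genes other than Ighm they were 21.1 and 27.6 in code LI. In code SI they were 22.9 and 8, the latter from 2 V counts. In both intestinal sets the Ighm counts of the BMT libraries came with few V counts. T cell genes moved with them: all 10 genes of a T cell list rose in each tissue, and V segments of the T cell receptor alpha and beta chains went from 21 to 1266 counts in code SI, from 25 to 2355 in code LI and from 26 to 371 in liver. The part of T cells in the Ighm counts was not tested.

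**Figure D4:**
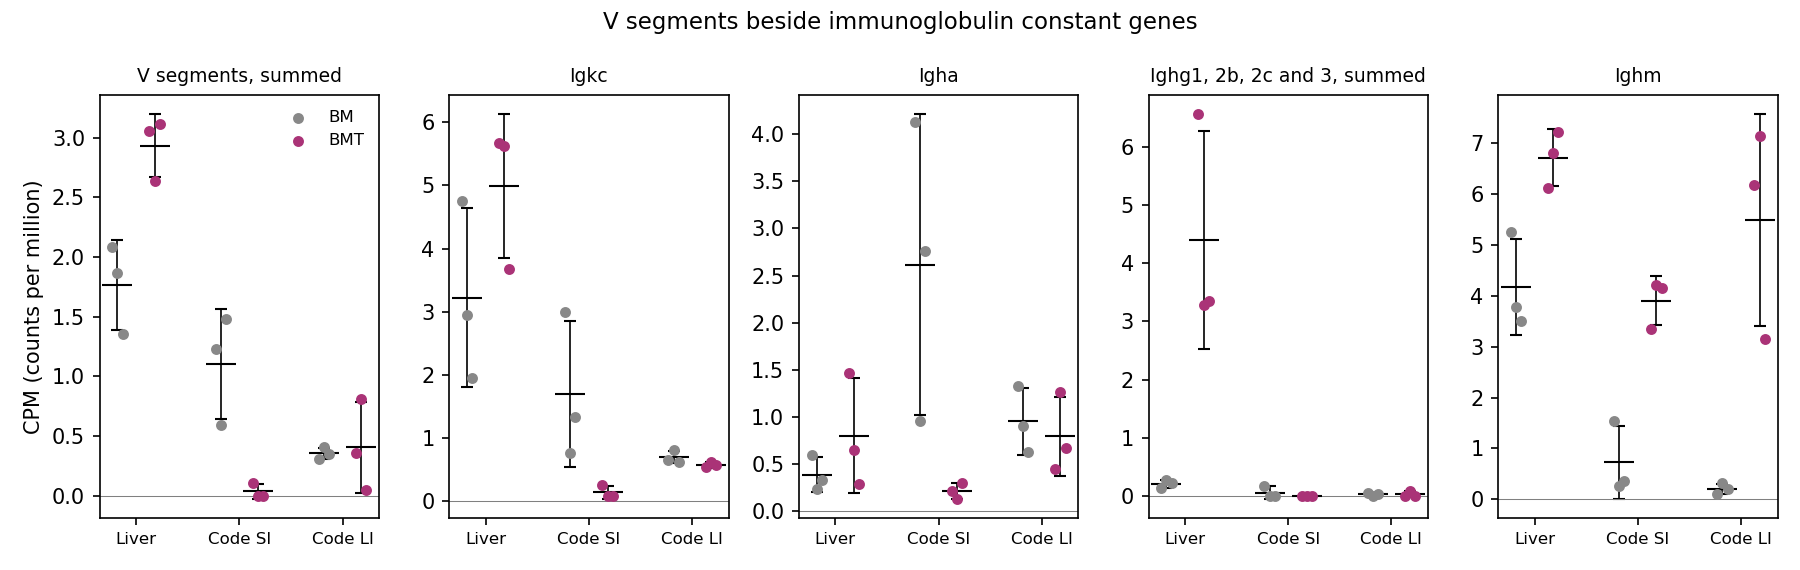
CPM of the summed V segments, of Igkc, Igha and Ighm, and of 4 Ighg genes summed, in each library (points) by tissue and group, with the mean (dash) and SD (bars, n = 3), each panel on its own scale. V segments, Igkc and Igha are lower in BMT in code SI, the Ighg genes are high in BMT livers alone, and Ighm is higher in the BMT libraries of both intestinal sets.

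Genes that mark the source cells were checked beside these results. Among defining B cell genes, Pax5 had 0 counts in all intestinal libraries and at most 1 in any liver library. Ms4a1 had at most 11 counts and Cd79a at most 5 in any library. Of 13 B cell genes 3 were tested in liver and 2 rose, among them Cd22, an inhibitory receptor of B cells (log2 fold change 2.14 ± 0.42, edgeR adjusted p = 0.0174). That call was lost without BMT library 2 (edgeR adjusted p = 0.0797) or 3 (0.0636). Cd22 passed the filter through the BMT libraries, with 4, 12 and 9 counts in BM and 25, 41 and 40 in BMT livers. The summed level of the 13 B cell genes was 3.18 to 4.01 CPM in BM and 6.28 to 7.46 CPM in BMT livers. In code SI it was 43.1 to 61.1 CPM in BM and 29.7 to 46.3 CPM in BMT libraries, in code LI 178 to 186 and 127 to 166 CPM, and most of it was Blnk, at means of 48.6 and 180 CPM in the BM libraries of code SI and code LI. The other to rise was Cd37, a membrane protein of T cells too (2.47 ± 0.36, edgeR adjusted p = 0.0063). In code SI Cd37 rose as the only gene of 3 tested (1.90 ± 0.32). In code LI 2 were tested, of which Cd37 rose (4.34 ± 0.26) and Blnk, which epithelial libraries held at high level here, fell (-0.46 ± 0.16, edgeR adjusted p = 0.0454). The Blnk call was lost without any BM library or without BMT library 1 or 2 (adjusted p of 0.0963 to 0.184), and with all libraries under RLE scaling (0.0541), DESeq2 (0.0524) or 1 fit over 18 libraries (0.0976).

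Of 13 plasma cell genes 9 were tested in liver, and 2 rose. These were Tnfrsf13b, a receptor for B cell survival factors (log2 fold change 3.11 ± 0.56, edgeR adjusted p = 0.0128), and Prdm1, the plasma cell transcription factor that T cells also express (2.17 ± 0.43, adjusted p = 0.0185). The Tnfrsf13b call was lost without BMT library 1 (edgeR adjusted p = 0.0506) or 2 (0.0556). More Tnfrsf13b counts in BMT were not particular to liver, though the gene was untested in the intestine. It had 5, 0 and 0 counts in BM against 5, 18 and 15 in BMT libraries of code SI, and 2, 0 and 2 against 27, 23 and 2 in code LI. The Prdm1 call was lost without BM library 2 or any BMT library (edgeR adjusted p of 0.0605 to 0.0737). Tnfrsf13b and Prdm1 passed the filter in liver through the BMT libraries alone. Their counts were 4, 4 and 1 in BM against 36, 26 and 15 in BMT livers, and 2, 6 and 8 against 24, 23 and 22. The list's median was 0.37, against -0.02 over all genes tested. In code SI 2 of 8 rose, Irf4 (4.92 ± 0.57) and Prdm1 (2.10 ± 0.32), and 1 fell, Xbp1 (-0.53 ± 0.15), which secretory epithelium also uses. The median was -0.13, against 0.02 over all genes. In code LI the same 3 genes passed with the same signs among 7 tested (Irf4 5.70, Prdm1 1.34 and Xbp1 -0.49, edgeR). Irf4 passed the filter through the BMT libraries alone in both sets. It had 2, 0 and 2 counts in BM against 32, 55 and 46 in BMT libraries of code SI, and 1, 2 and 4 against 189, 126 and 60 in code LI. The Xbp1 calls were lost without any single BM library in code LI or code SI, without BMT library 1 in both, and without BMT library 2 in code LI (edgeR adjusted p of 0.0588 to 0.141). The summed level of the list was 702 to 894 CPM in BM and 632 to 773 CPM in BMT livers, 1029 to 1092 and 789 to 876 CPM in code SI, and 791 to 856 and 632 to 746 CPM in code LI. Sdc1, Xbp1 and Txndc5, which many other cells express, carry most of it.

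Of the list for switching, survival and IgA transport, genes moved in both directions in the intestine. Pigr, the receptor that carries polymeric IgA across the epithelium, fell from 2902 ± 303 to 1491 ± 510 CPM in code SI (log2 fold change -0.90 ± 0.25, edgeR adjusted p = 0.0235) and from 5034 ± 201 to 1209 ± 370 CPM in code LI (-2.04 ± 0.23, adjusted p = 6.02e-05). The code SI call was lost without BM library 1 or 2 or BMT library 1 or 2 (edgeR adjusted p of 0.0604 to 0.105). Ccl28, a chemokine that attracts IgA plasma cells, fell by 1.61 ± 0.22 in code SI and by 3.30 ± 0.15 in code LI on the log2 scale (edgeR adjusted p = 0.000457 and 1.56e-07). In liver Pigr was at 1118 ± 305 and 1210 ± 123 CPM (adjusted p = 0.512). Of the 11 genes in this list, 5, 7 and 8 were tested in liver, code SI and code LI, with 0, 2 and 3 rising and 0, 3 and 3 falling. Besides Pigr and Ccl28, Tnfsf13, a survival factor of plasma cells, fell in both sets, while the homing receptor Ccr9 and the cytokine Tgfb1, both also T cell genes, rose in both, and Tnfsf13b rose in code LI.

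Early B cell genes gave little: of 9 genes for V(D)J recombination and pre-B cells, 1 was tested in each tissue and rose (Il7r, which T cells also use), and the summed level of the list was at most 1.17 CPM in BM livers, 2.00 in BMT livers, 0.46 and 2.87 in code SI and 0.39 and 11.6 in code LI. Genes of lamina propria stroma, vessels and myeloid cells were read beside the V segments, and their part in the V levels was not tested. Of 11 stroma and myeloid genes 2 of 8 tested rose in code SI and none fell, with a summed level of 15.5 to 31.1 CPM in BM and 43.8 to 57.4 CPM in BMT libraries, and none of the 11 was at 0 in BM. In code LI 4 of 9 rose (19.2 to 20.8 against 95.5 to 190 CPM), and in liver 7 of 11 (230 to 295 against 351 to 429 CPM). In code SI the summed level of this list was thus higher in BMT, but its median log2 fold change was -0.0084, against 0.023 over all genes tested. The list as a whole did not rise there. Of 8 epithelial genes, 2 of 8 tested rose in code SI, 4 of 8 in code LI and 0 of 6 in liver, and none fell. Mitochondrial transcripts took 2.77 to 10.7% of counts, and their removal from the totals moved no summed V difference beyond 1 SD of the replicates.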

How the data were processed

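RNA was measured by polyA-selected, stranded sequencing of 100 bp pairs in 18 libraries, per the labels' protocols. The values are raw counts of 53379 genes, as deposited by the authors. The submitters' processing notes name GRCm38.p5 as the build, and as tools featureCounts 1.6.3, FastQC 0.11.9 and STAR 2.7.0e. The sources used here do not give the annotation release, the strand setting or the treatment of multi-mapping reads. Symbols matched 53274 gene IDs through GENCODE M21.

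The members and gene lists were chosen with earlier results of these data known. Groups followed the titles' treatment labels. CPM is a count divided by all counts of its library, times 1000000. Intervals are 95% exact Poisson, binomial (Clopper-Pearson) or conditional binomial intervals and cover counting error only. Each tissue was fitted on all genes with edgeR 4.0.16 in R 4.3.3 (filterByExpr with a minimum count of 10, TMM, quasi-likelihood F-test, Benjamini-Hochberg, threshold 0.05). Differences between tissues were fitted over 18 libraries with a mouse term. Fits were tested on simulated data. DESeq2 1.42.0, RLE scaling, no filter, a replicate block, other count minimums, reduced counts and leaving out each library were alternatives. Named segments were the 8 with the highest mean CPM per tissue, the leading segment of each library, those called and those at the minimum of 5 counts. Others were chosen after their values were seen: the families of named segments, and those seen in 1 library or in every tissue. Other named genes were constant genes and up to 4 called genes per list, plus genes known to define B cells or to serve IgA. V promoter sequences and proteins were not used here.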

Additional observations from a re-analysis of the deposited data

Results flagged for a closer look

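The summed V level differed in direction between liver and code SI. The BMT minus BM difference of the means was higher by 2.23 CPM in liver, all 3 BMT livers lying above the BM livers and all 3 code SI BMT libraries below the BM libraries. This difference was not tested.

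For genes other than V segments, the BMT effect was tested between tissues in the fit over 18 libraries (edgeR, adjusted over all genes). Between liver and code SI, effects were higher in liver by log2 4.65 for Igha (adjusted p = 0.00326), 4.27 for Igkc (0.000501), 3.28 for Jchain (0.0318), 1.29 for Pigr (0.0403) and 0.93 for Xbp1 (0.0195). In the same comparison the value was -1.73 for Ighm (adjusted p = 0.0465) and -3.70 for Irf4 (0.0152). Between liver and code LI it was 2.46 for Pigr (adjusted p = 0.000668), 0.92 for Xbp1 (0.016), -1.86 for Cd37 (0.0158), -3.73 for Ighm (0.000808) and -4.33 for Irf4 (0.00262). Between code SI and code LI it was -3.09 for Igkc (adjusted p = 0.0245), -2.36 for Cd37 (0.00876) and 1.73 for Ccl28 (0.0138). Some of these calls were lost when 1 mouse number was left out. Between liver and code SI the adjusted p reached 0.177 for Ighm (lost without mouse 4, 5, 6, 9 or 10), 0.145 for Jchain (2, 5, 9 or 10), 0.11 for Irf4 (2, 4 or 9), 0.153 for Pigr (2, 4, 5, 6 or 9) and 0.0927 for Xbp1 (2, 4, 6 or 9). Between liver and code LI it reached 0.0981 for Xbp1 (4, 6 or 9) and 0.0781 for Cd37 (4, 5 or 9). Between code SI and code LI it reached 0.096 for Igkc (2, 5, 9 or 10), 0.0624 for Ccl28 (4 or 6) and 0.0504 for Cd37 (2). Without a mouse term the adjusted p between liver and code SI was 0.0791 for Ighm and 0.0722 for Pigr, and with RLE scaling it was 0.0502 for Ighm. Effects for Igha and Igkc between liver and code SI, and for Pigr, Ighm and Irf4 between liver and code LI, stayed under 0.05 in every alternative.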

How the results depend on the processing

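No V segment entered any fit that kept the low-count filter, so the 0 segments called with RLE scaling, the replicate block, 1 fit over 18 libraries, no mouse term, lane 2 alone or 1 library or mouse left out (0 to 0) were fixed by the filter and say nothing about stability. Segments were fitted only by DESeq2, which called 0, and without the filter, which called 1, in code SI. DESeq2 gave most segments no adjusted p, so its 0 calls were largely fixed by low counts too. Replicate numbers do not pair BM with BMT libraries, whose descriptions carry different numbers. The summed V difference in liver, 1.17 CPM, became 1.88 with every segment of at least 1 count and -0.0444 with segments of at least 20. In code SI it was -1.06 CPM, -1.22 with every segment of at least 1 count and -0.167 with segments of at least 20. The difference in segments detected in liver, 9.67, became 5 with at least 3 counts, 0 with at least 10, and 2.98 at equal V counts. In code SI, -9.67 became -3.33 and 0 with those minimums, and no equal V count was possible because libraries held 0. Leaving out each library gave 0.962 to 1.33 CPM and 8.67 to 10.7 segments in liver, -1.32 to -0.872 CPM and -11.2 to -8.17 segments in code SI, and -0.151 to 0.229 CPM and -2.83 to 1.17 segments in code LI. For other genes, 454 values kept direction and side of the threshold, 69 lost and 4 gained the call, and 4 changed sign: Jchain in liver (0.19) without BM replicate 3, with a range of -0.010 to 0.41 over the libraries left out, and in lane 2 alone (-0.19), and Igha in code LI (-0.24) without BM replicate 1 or BMT replicate 1, with a range of -0.68 to 0.067. Ighm in liver passed with DESeq2 (adjusted p = 0.0192), and with edgeR without the filter (0.0328) or without BM replicate 1 (0.0189). In every other alternative it did not pass, with an edgeR adjusted p of 0.0509 (RLE scaling) to 0.17 (without BM replicate 2). The causes were not tested. At 0 to 75 V counts per library, depth limits every value for a single segment.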
